A study of Mus musculus with 8 samples.

Results

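Mt1 and Mt2 are the metallothionein genes described here, 2 of the 27998 genes in a table of UMI counts from mouse bone marrow progenitors. They were chosen from measured values of these same cells, among them a high level in erythroid progenitors, so their levels across cell states are given as a description without a test. The UMI, a molecular tag, lets amplified copies of 1 transcript be counted once. The cells were KL cells, sorted for c-Kit (CD117) and against the lineage antigens CD3, CD4, CD8, CD45R, CD11b, TER119 and GR1, from female B6 (C57BL/6) mice 3 to 4 months old, for which no transgene or deletion is given. CVT mice had been moved from specific pathogen-free housing and co-housed in a conventional facility for 1 month, and SPF mice stayed in pathogen-free housing. Each group had 10 mice combined into 4 pools of 2 or 3 mice, and the pool is the replicate, since mice within a pool cannot be told apart. The labels number the mice in a single run and name no sets or batches. For this report, pools 1 to 4 were taken as a first set of mice and pools 5 to 8 as a second one. Each of these pool sets had 2 pools of either group. Pools 1, 2, 7 and 8 were SPF and pools 3, 4, 5 and 6 were CVT, read from the number ending each cell's name.

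A pool held 1888 to 4845 of the 29891 cells and 19041749 to 59812346 UMIs in total, and SPF pools 1 and 7 were the smallest. Kit, the gene of the sorted antigen, had a UMI in 51.0% of cells, while Cd3e, Cd4 and Cd8a had one in 0.0803%, 0.318% and 0.0736%. The gene of CD11b, Itgam, had a UMI in 9.39% of cells and Ly6g in 6.07%, so transcripts of lineage antigens were not absent. Of 29365 barcodes, 522 (1.78%) occurred in more than 1 pool. The cells fell into 33 clusters, grouped without any metallothionein gene, and a class is called "-like" where its leading genes matched written marker lists. Clusters without such a match held 4310 cells (14.4%) and are in no class.

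Metallothioneins are small proteins rich in cysteine that bind zinc and copper and can take up cadmium. Zinc excess activates the transcription factor MTF1, which binds metal response elements in metallothionein promoters, and glucocorticoids and oxidative stress are also known inducers. In the erythroid lineage, c-Kit-positive progenitors lead to erythroblasts that fill with haemoglobin, and zinc and copper enzymes such as carbonic anhydrase and superoxide dismutase are abundant in red cells.

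The genes lie side by side on chromosome 8. In GENCODE M21 on GRCm38, Mt2 (ENSMUSG00000031762.7) spans 94172664 to 94173568 and Mt1 (ENSMUSG00000031765.8) spans 94179082 to 94180327, each on the plus strand, with 5513 bases between them. Mt3 and Mt4 lie on the other side of Mt2. The promoters are shown because metal response is read from motifs there, and because the 2 genes differed from each other across cell classes. The sequences are those of RefSeq (GRCm38.p6, plus strand) from 250 bases before to 50 bases after the annotated start, at chr8:94178839-94179138 for Mt1 and chr8:94172368-94172667 for Mt2. Capitals mark matches on either strand to TGCACNC or TGCGCNC, which are forms of the metal response element core.
Mt1: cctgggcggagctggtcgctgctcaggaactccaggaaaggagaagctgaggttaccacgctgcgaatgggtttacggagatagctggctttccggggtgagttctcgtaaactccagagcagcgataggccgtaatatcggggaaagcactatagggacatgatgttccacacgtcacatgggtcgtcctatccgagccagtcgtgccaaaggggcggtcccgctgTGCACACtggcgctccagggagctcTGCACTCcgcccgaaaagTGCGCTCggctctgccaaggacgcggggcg
Mt2: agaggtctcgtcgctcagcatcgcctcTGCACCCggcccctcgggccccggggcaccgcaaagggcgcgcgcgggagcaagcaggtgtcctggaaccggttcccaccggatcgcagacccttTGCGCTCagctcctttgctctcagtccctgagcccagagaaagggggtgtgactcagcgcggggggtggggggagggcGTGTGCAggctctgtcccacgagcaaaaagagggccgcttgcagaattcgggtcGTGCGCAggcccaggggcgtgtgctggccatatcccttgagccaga
The Mt1 window held 3 matches and the Mt2 window 4, and no match overlapped another. Of 32851 RefSeq promoters of 300 bases, 25.7% held at least 1 match and 1.97% held 3 or more. Mt3 and Mt4 had 1 match each. A core linked with the antioxidant response, TGACNNNGC, had 1 match in Mt2, none in Mt1 and at least 1 in 12.4% of promoters. TATAAA, a form of the TATA box, had no match in either window and at least 1 in 13.6% of promoters. The windows hang on the RefSeq starts, and the GENCODE start of Mt2 lies at the very end of its window. Matches beyond the windows were not counted, so these counts need not cover all metal response elements of the genes, nor their TATA boxes. These are matches of letters in a fixed window, and no binding was measured.

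Reads of the pair can be told apart in the transcripts. The longest run of bases that a transcript of Mt1 shared with one of Mt2 in GENCODE M21 was 20 bases, or 17 bases within the last 300 bases, where these 3' libraries draw their reads.

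Of the 4 metallothionein genes in the table, only Mt1 and Mt2 had more than 5 UMIs. Mt1, the more abundant, had 111976 UMIs and at least 1 UMI in 50.3% of cells. Mt2 had 45302 UMIs and at least 1 UMI in 18.5% of cells. Mt3, known mainly from brain, had 5 UMIs in 5 cells, and Mt4, known from squamous epithelium, had none in 29891 cells.

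Levels differed by cell class far more than by pool, and the 2 genes did not share their order. Levels are given as CPM, the UMIs of the gene per 1000000 UMIs of the cells in question, with the mean and SD over 8 pools. In the 6620 erythroid-like cells, Mt1 was 864.2, 762.4, 628.9 and 819.8 CPM in SPF pools 1, 2, 7 and 8 and 767.7, 846.2, 872.0 and 890.7 CPM in CVT pools 3 to 6. Mt2 in those cells was 486.2, 401.8, 270.2 and 429.7 CPM in the SPF pools and 385.0, 485.5, 422.6 and 490.3 CPM in the CVT pools, in the same order. SPF pool 7 was the lowest for either gene, and the other SPF pools lay within the CVT range except for Mt1 in SPF pool 2, which was just below it. The means were 806.5 ± 85.7 CPM for Mt1 and 421.4 ± 73.4 CPM for Mt2, and with each cell thinned to 2759 UMIs, so that every cell weighed the same, 612.4 and 275.5 CPM.

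Mt1 was next highest in GMP-like cells, the granulocyte and monocyte progenitors, at 255.3 ± 26.4 CPM. Erythroid-like cells exceeded them 3.16-fold in the means and 2.63-fold to 3.76-fold within the 8 pools. With coarser clusters (resolution 1) the GMP-like class held 1012 cells instead of 2985 and had 444.9 CPM of Mt1. Below these came monocyte-like (139.8 ± 20.9), late granulocyte-like (123.4 ± 37.7), CMP-like (122.8 ± 24.2), megakaryocyte-like (113.4 ± 20.1) and basophil and mast-like cells (103.8 ± 16.4), a run of neighbours whose ranges over pools overlapped. Among the 10 named classes with at least 950 cells, the lowest Mt1 levels were in MPP-like (41.1 ± 7.39), LTHSC-like (37.5 ± 9.82) and LMPP-like cells (20.04 ± 9.51), and these neighbours overlapped too. With 2000 variable genes LMPP-like cells had 33.4 CPM. MPP and LTHSC are multipotent and long-term stem cell classes, and LMPP are lymphoid-primed progenitors.

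Mt2 had no second class of that kind. Of those 10 classes the one next to erythroid-like cells was megakaryocyte-like, at 14.4 ± 5.84 CPM, which overlapped basophil and mast-like cells (13.6 ± 5.34), and erythroid-like cells exceeded it 29.3-fold in the means. With 2000 variable genes megakaryocyte-like cells had 9.08 CPM, the same as LTHSC-like cells there, and erythroid-like cells 440.3 CPM. The B-like cluster of 168 cells had 24.9 ± 45.9 CPM, with 1 pool at 136.5 CPM. GMP-like cells, which ranked second for Mt1, had 8.01 ± 3.95 CPM of Mt2, close to LTHSC-like (6.93 ± 2.09), LMPP-like (6.85 ± 3.37) and MPP-like cells (7.54 ± 4.47). Erythroid-like cells were 22.2% of all cells and held 72.5% of Mt1 UMIs and 94.8% of Mt2 UMIs. Their share of Mt2 UMIs was 94.0% to 95.2% in CVT pools and 94.9% to 97.1% in SPF pools.

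**Figure D1:**
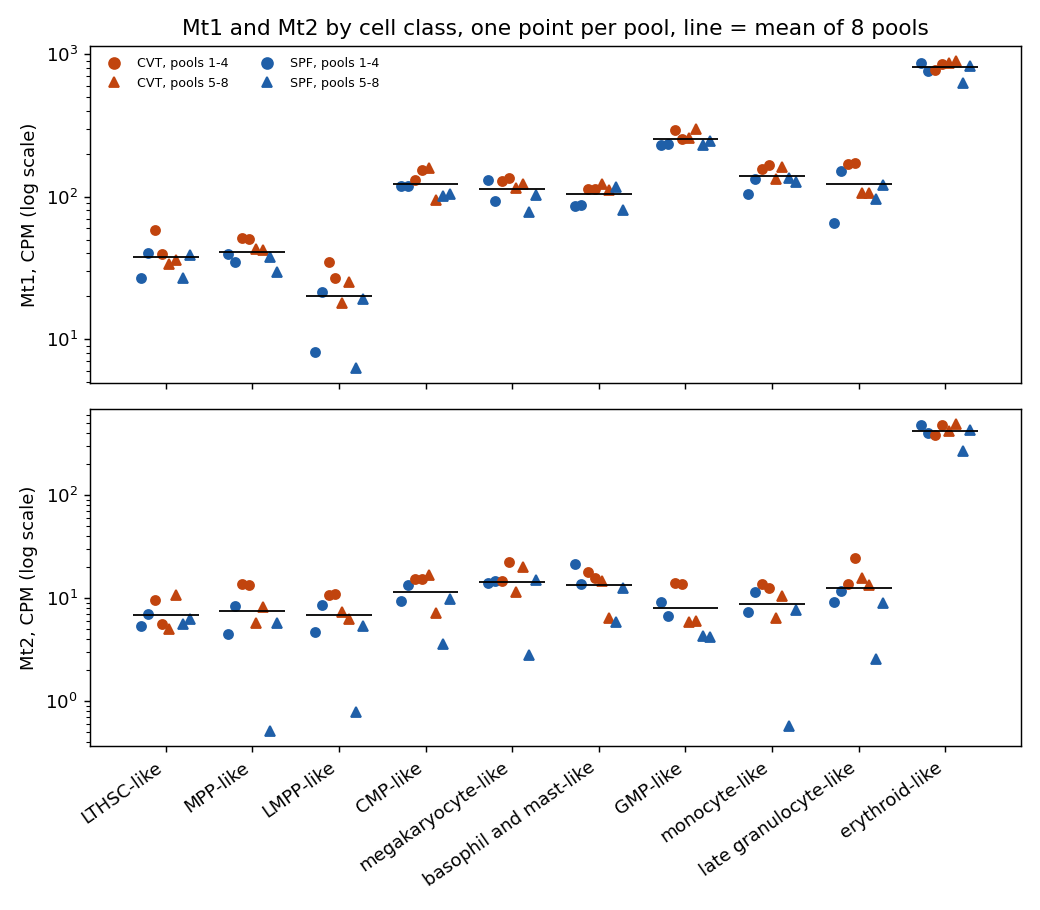
Mt1 (upper panel) and Mt2 (lower panel) in CPM on a log scale for 10 cell classes, with 1 point per pool, colour for housing group, shape for pool set and a line at the mean of 8 pools. Erythroid-like cells are highest for both genes, and GMP-like cells are second for Mt1 (255.3 CPM) but level with stem cell classes for Mt2 (8.01 CPM).

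In droplet libraries, RNA released from broken cells adds UMIs to cells that do not make a transcript, so levels outside the erythroid-like class were set beside those of erythroid genes. Car1, a carbonic anhydrase, Ermap, an erythroid membrane protein, Rhd, of the Rh blood group, and Fam132a were taken as such genes after the clusters' leading genes had been seen. Mt2 in GMP-like cells was at 1.90% ± 0.899 of its level in erythroid-like cells of the same pool (SD, n = 8 pools). Car1 was there at 1.54% ± 0.685, Ermap at 1.08% ± 0.558, Rhd at 1.37% ± 0.571 and Fam132a at 7.35% ± 1.71. Mt2 was above Ermap in 8 pools, above Rhd in 6, above Car1 in 5 and above Fam132a in 0 of the 8 pools, so the erythroid genes did not give 1 common background. In LMPP-like cells, of the lymphoid side, Mt2 was at 1.59% ± 0.801, Car1 at 1.66% ± 0.523, Ermap at 1.32% ± 0.868, Rhd at 1.62% ± 0.990 and Fam132a at 6.67% ± 2.74. Low Mt2 outside erythroid-like cells is thus in the range of these genes, and whether it is free RNA or expression was not tested. Mt1 in GMP-like cells was at 31.9% ± 3.91 of the erythroid level and in LMPP-like cells at 2.47% ± 1.18.

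The share of cells with a UMI gave the same picture once each cell was thinned to 2759 UMIs, the smallest total in the data, at which no cell had to be left out. Mt2 was found in 2.13% ± 0.907 of thinned GMP-like cells (10.4% without thinning, median depth 14219.5 UMIs) and in 1.74% ± 1.18 of LMPP-like cells (5.41% without thinning, median depth 7219.5 UMIs). Mt1 was found in 37.9% ± 5.17 of thinned GMP-like cells, 4.52% ± 2.68 of LMPP-like cells and 65.2% ± 5.26 of erythroid-like cells (71.3%, 13.3% and 82.4% without thinning). Mt1 UMIs per Mt2 UMI averaged 1.94 ± 0.190 in erythroid-like cells, 3.499 ± 1.96 in LMPP-like cells and 38.2 ± 15.7 in GMP-like cells.

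**Figure D2:**
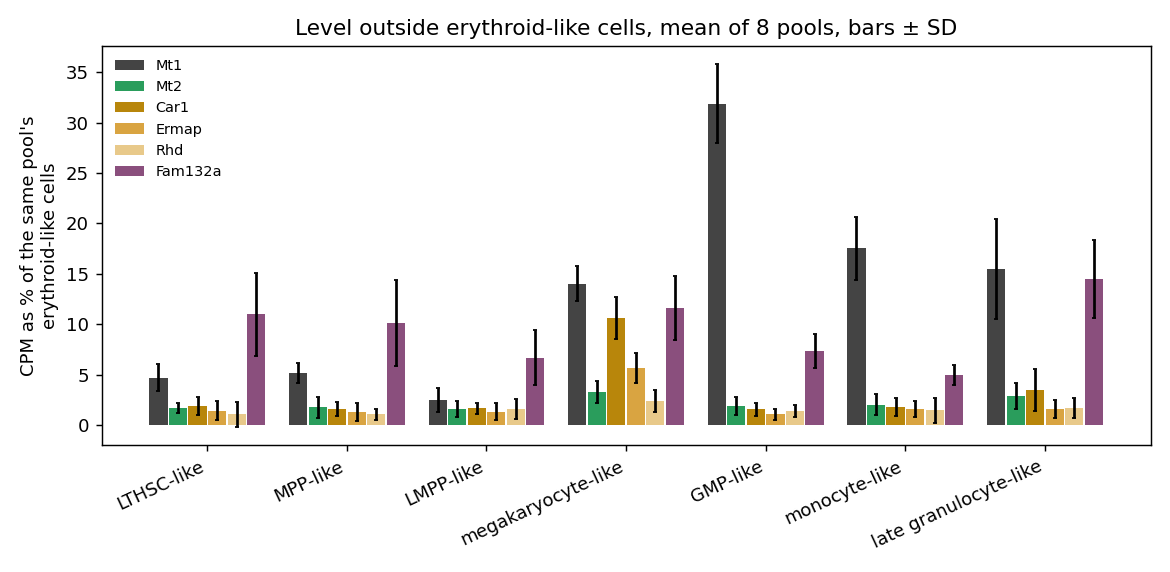
Level outside the erythroid-like class as a percentage of that in erythroid-like cells of the same pool, for Mt1, Mt2, Car1, Ermap, Rhd and Fam132a in 7 classes, with bars for the mean of 8 pools and error bars for the SD. In GMP-like cells Mt2 (1.90%) stands near Car1, Ermap and Rhd (1.54%, 1.08% and 1.37%) and below Fam132a (7.35%), while Mt1 reaches 31.9%.

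Within the GMP-like class Mt1 was uneven. Cluster 13, led by the neutrophil serine protease genes Elane and Ctsg with Ms4a3, had 452.3 ± 31.8 CPM, and its 8 pools lay between 402.1 and 492.8. Cluster 20, led by F13a1 and mitotic genes, had 159.2 ± 23.2 CPM and cluster 10, led by Mpo and Ctsg with Ccl9 and Cpa3, 131.7 ± 27.6 CPM, and the pools of these clusters overlapped. The late granulocyte-like cluster led by Fcnb, Camp and Ngp, genes of the specific granules, had 170.2 ± 51.3 CPM. Cluster 5 (1656 cells) had 10 GMP markers but stayed unnamed, since more monocyte markers were among its leading genes. Its Mt1 was 197.3 ± 24.0 CPM, and it is in no GMP-like value given here. Mt2 in cluster 13 was 8.81 ± 5.27 CPM, beside 6.67 ± 3.69 in cluster 10 and 8.93 ± 3.504 in cluster 20, which differ from it by less than the SD.

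The 7 erythroid-like clusters were set in order by the ratio of late to early erythroid genes, with neither metallothionein gene in the lists. Of these, 5 clusters with more than 500 cells each are called stage clusters below. Cluster 3, the earliest, was led by Csrp3 and Trib2 and already held Klf1, Gata1 and Gfi1b among its marker genes. Cluster 7 was led by Car1, and cluster 18 by Car1, Ermap and histone genes of dividing cells. Mt2 and Mt1 were also among the leading genes of cluster 18. Clusters 16 and 11 were led by Mt2 itself with Sphk1, Fam132a and Rhd. Although the clusters were formed without Mt2, it was chosen for a high level in such cells, so its lead is no independent evidence.

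Either gene had its highest mean in cluster 16, and Mt2 differed by a larger factor than Mt1 between clusters 3 and 11. Mt1 averaged 232.2 ± 21.8 CPM in cluster 3, 613.8 ± 65.1 in cluster 7, 884.6 ± 94.4 in cluster 18, 1147.9 ± 111.4 in cluster 16 and 1008.9 ± 76.6 in cluster 11. Mt2 averaged 30.1 ± 6.90, 139.2 ± 30.9, 354.2 ± 45.0, 736.8 ± 85.9 and 674.3 ± 58.7 CPM in the same clusters. Pools of neighbouring clusters did not overlap in Mt2 up to cluster 16, while those of clusters 16 and 11 did for either gene.

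The ratio of Mt1 to Mt2 fell from 8.08 ± 2.01 in cluster 3 to 4.52 ± 0.588, 2.51 ± 0.191, 1.57 ± 0.143 and 1.499 ± 0.0672 in cluster 11. From the first to the last stage cluster Mt1 differed 4.34-fold and Mt2 22.4-fold. Among 7503 genes with at least 10 CPM in either cluster, Mt2 ranked 14th and Mt1 193rd by this fold. Genes of the mitotic cycle such as Ccna2 and Ccnb2, and Rhd and Sphk1, were among those ranked above Mt2. These ranks describe clusters that the same cells defined.

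**Figure D3:**
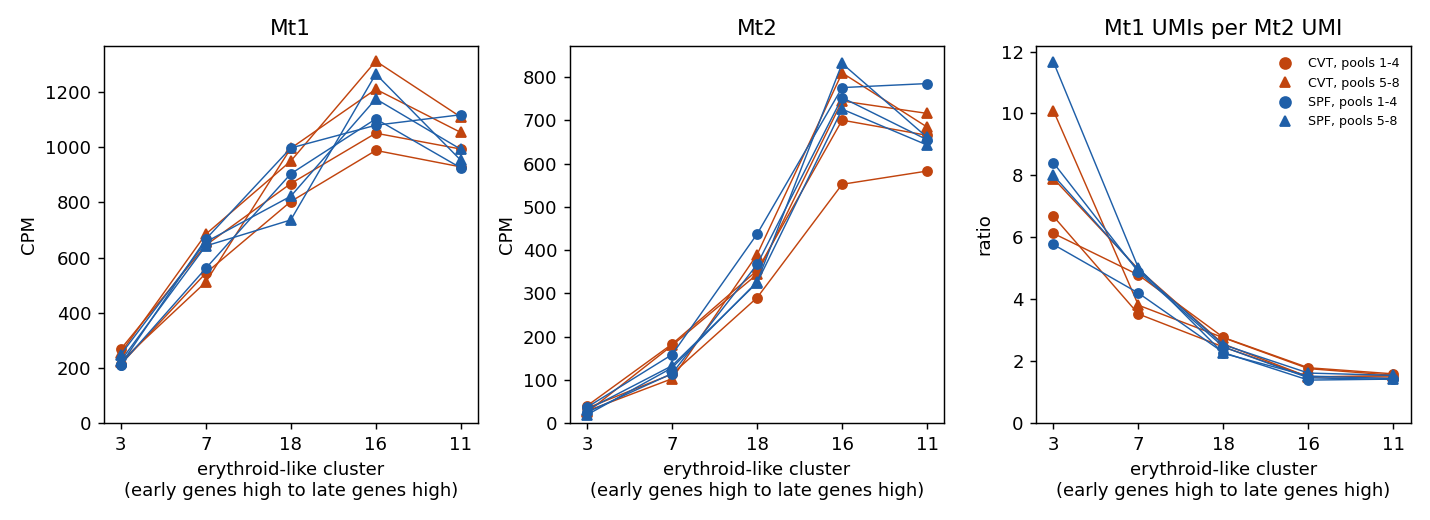
Mt1 (left) and Mt2 (centre) in CPM and Mt1 UMIs per Mt2 UMI (right) across the 5 erythroid-like stage clusters, from cluster 3 with the most early genes to cluster 11 with the most late genes, with 1 line per pool. All 8 pools climb to clusters 16 and 11, and the ratio falls from a mean of 8.08 to 1.499.

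Depth rose along the same order, from a median of 5768 UMIs per cell in cluster 3 to 29577 in cluster 11. In cells thinned to 2759 UMIs, Mt1 was found in 38.2% ± 3.87 of the cells of cluster 3, 68.9% ± 4.28 in cluster 7, 76.9% ± 5.65 in cluster 18, 92.7% ± 2.48 in cluster 16 and 87.8% ± 4.91 in cluster 11. Mt2 was found in 5.71% ± 2.10, 22.6% ± 5.06, 40.8% ± 5.97, 77.8% ± 8.23 and 78.8% ± 6.69 of the same cells. At equal depth either gene still increased from cluster to cluster up to cluster 16, and clusters 16 and 11 differed by less than the SD in Mt2.

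The other 2 erythroid-like clusters stood apart. Cluster 30 (137 cells) was led by the globin genes Hba-a1, Hbb-bs, Hba-a2 and Hbb-bt with Alas2, the first enzyme of erythroid haem synthesis. It held 119.8 ± 62.3 CPM of Mt1 and 66.8 ± 62.0 CPM of Mt2, and none of its 8 pools reached the lowest pool of cluster 11 (924.9 CPM for Mt1 and 583.0 for Mt2). Globin genes gave 223490.8 CPM of this cluster, which lowers the CPM of every other gene there, and SPF pools 1 and 2 gave it only 4 cells each. TER119, a mature erythroid antigen, was gated out, so such cells are sampled thinly. Cluster 26 (329 cells) was led by the interferon genes Isg15, Ifit1 and Usp18, and its Mt1 was 319.9 ± 63.9 CPM. Its Mt2 ran from 17.8 CPM in SPF pool 7 to 364.2 CPM in SPF pool 1, the latter from 20 cells.

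The transcripts occurred together in single cells. In thinned erythroid-like cells, 31.7% had a UMI of each gene (18.1% to 39.6% over pools), against 23.4% if the genes were independent within a pool. Mt2 was found in 48.2% of erythroid-like cells with Mt1 and in 10.7% of those without. Pearson's r between their UMIs over cells averaged 0.50 (0.44 to 0.59 over 8 pools), with all cells of a pool sharing 1 library. Within 1 stage cluster the mean r was between 0.20 and 0.43, smaller than over the whole class, in which stage varies. The mean share of cells with both, over 7 or 8 pools, was 72.4% in cluster 11 and 71.2% in cluster 16. Independence within a pool would give 71.6% and 70.4% there. The shares were 39.2% against 33.0% in cluster 18, 19.6% against 15.7% in cluster 7 and 3.81% against 2.24% in cluster 3. In GMP-like cells r averaged 0.03, and at these counts a weak correlation is no finding.

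Metal-handling genes from written lists were set beside the pair along the stages. Of 7503 genes, 9.78% were at least 2-fold higher in cluster 11 than in cluster 3 and 17% were at least 2-fold lower. Of the 9 copper genes with at least 10 CPM, 4 were at least 2-fold higher and none 2-fold lower. Atp7b, a copper-exporting ATPase, went from 0.273 to 24.4 CPM, Cox17, a copper chaperone of cytochrome oxidase, from 142.3 to 350.9 CPM, Slc31a1, the copper importer, from 12.02 to 29.9 CPM, and Steap3, a reductase of iron and copper, from 31.8 to 68.4 CPM. Of the 8 zinc genes Slc39a8, a zinc importer, was at least 2-fold higher (3.94 to 17.8 CPM) and none lower. Mtf1, the zinc-sensing activator of metallothionein genes, went from 15.3 CPM in cluster 3 to 27 CPM in cluster 11, and Slc39a7 and Slc30a5, zinc carriers of internal membranes, from 30.1 to 40.7 and from 17.6 to 27.2 CPM.

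Of 9 glucocorticoid-responsive genes 5 were at least 2-fold lower in cluster 11 (Tsc22d3, Zbtb16, Dusp1, Zfp36 and Ddit4) and none higher. Tsc22d3, a standard readout of the glucocorticoid receptor, went from 62.4 to 6.12 CPM, and Nr3c1, the receptor itself, from 77.2 to 40.7 CPM. Of 13 genes of handling stress and immediate early response, 12 were at least 2-fold lower, all but Dnajb1, among them Jun (624.0 to 30.2 CPM). Dusp1 is on this list and on the glucocorticoid list, and is counted in each. Of 11 oxidative stress genes only Gclc, of glutathione synthesis, was 2-fold higher (19.5 to 42.6 CPM), while Gpx1 was 923.7 and 814.3 CPM. Of the genomic neighbours, 4 had at least 10 CPM and none differed 2-fold. Nudt21 was 169.2 and 270.3 CPM.

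The housing comparison asked whether 1 month in a conventional facility changed gene expression in KL cells. The sums of UMIs in each pool entered edgeR's quasi-likelihood test over all genes, with a threshold of 0.05 for the Benjamini-Hochberg adjusted p. In all KL cells, Mt1 was 369.6, 308.8, 204.3 and 280.1 CPM in SPF pools 1, 2, 7 and 8 and 384.6, 393.3, 311.3 and 333.1 CPM in CVT pools 3 to 6. Mt2 was 173.8, 127.2, 56.7 and 111.0 CPM in the SPF pools and 149.9, 175.6, 112.3 and 134.3 CPM in the CVT pools. SPF pool 1 lay among the CVT pools, and SPF pool 7 was the lowest by a wide step. The log2 fold change of CVT against SPF was 0.35 for Mt1 (SE 0.15, adjusted p = 0.694 by edgeR) and 0.35 for Mt2 (SE 0.27, adjusted p = 0.801 by edgeR), and neither passed. Of 13092 genes tested in KL cells 0% passed by edgeR, where 392 higher and 529 lower genes had an unadjusted p under 0.05, and DESeq2 called 15. Without SPF pool 7 the log2 fold changes were 0.22 for Mt1 and 0.13 for Mt2. Mt1 and Mt2 were chosen with this contrast known in the same cells, so their direction is no independent evidence.

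In erythroid-like cells, whose values are given above, the log2 fold change was 0.16 for Mt1 (SE 0.093, adjusted p = 0.89 by edgeR) and 0.20 for Mt2 (SE 0.14, adjusted p = 0.894 by edgeR). Neither passed, and 0% of 10737 genes did by edgeR, where 218 higher and 307 lower genes had an unadjusted p under 0.05, and DESeq2 called 1. Without SPF pool 7 the values were 0.08 for Mt1 and 0.06 for Mt2. The test of a difference in the housing effect between the pool sets did not pass either (adjusted p = 0.731 for Mt1 and 0.774 for Mt2 by edgeR). In sums over a pool, the number of cells of a stage and the RNA per cell cannot be told apart. The stage make-up is therefore described next, and its part in the values above was not tested.

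The share of erythroid-like cells in the late clusters 16 and 11 was 28.6%, 24.8%, 11.5% and 32.0% in SPF pools 1, 2, 7 and 8 and 35.1%, 38.4%, 25.7% and 37.0% in CVT pools 3 to 6. SPF pool 7 had 17 cells in cluster 11 and 25 in cluster 16, the fewest of any pool. The means were 34.0% ± 5.70 in CVT and 24.2% ± 8.95 in SPF pools (SD, n = 4; exact permutation test over 70 splits, two-sided, p = 0.0857, where 0.0286 is the smallest possible). Over the 36 splits that keep the pool sets balanced, the exact p was 0.111, and 0.0556 is the smallest possible, so no difference could pass 0.05 there. The difference was 10.1 percentage points in pools 1 to 4, 9.60 in pools 5 to 8, and 5.61 without SPF pool 7.

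Within stage clusters the pools of the housing groups overlapped. With the 5 stage clusters given equal weight, Mt1 was 683.5 ± 57.7 CPM in CVT and 674.7 ± 26.4 CPM in SPF pools, and Mt2 was 235.5 ± 23.2 and 235.7 ± 27.1 CPM (SD, n = 4). The log2 differences were 0.02 for Mt1 (exact permutation test, two-sided, p = 0.8286) and 0.00035 for Mt2 (exact permutation test, two-sided, p = 1), and SPF pool 7, at 663.9 and 215.5 CPM, then lay within the range of the other pools. In cluster 16, SPF pool 7 had 1265.1 CPM of Mt1 and 831.7 CPM of Mt2, the second highest and the highest of the 8 pools. In none of the 10 pairs of stage cluster and gene were the pools of the groups apart. Within pool sets the equal-weight difference was -0.05 and 0.08 for Mt1 and -0.09 and 0.09 for Mt2 on the log2 scale. Without SPF pool 7 it was 0.008 for Mt1 and -0.04 for Mt2.

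**Figure D4:**
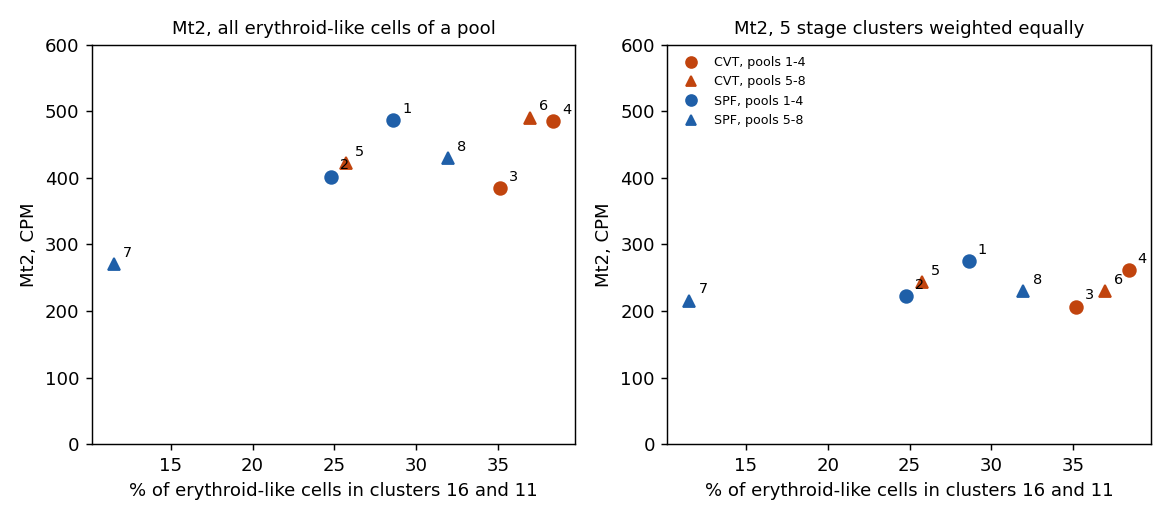
Mt2 in CPM against the percentage of erythroid-like cells in the late clusters 16 and 11, with 1 numbered point per pool, for all erythroid-like cells (left) and for the 5 stage clusters weighted equally (right). SPF pool 7 is low on the left (270.2 CPM, with 11.5% late cells) and within the other pools on the right (215.5 CPM).

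In GMP-like cells Mt1 was 230.1, 235.6, 231.4 and 245.9 CPM in SPF pools 1, 2, 7 and 8 and 292.2, 252.4, 256.8 and 298.1 CPM in CVT pools 3 to 6. Every CVT pool was above every SPF pool. This was not particular to GMP-like cells. Mt1 in MPP-like cells was 42.04 CPM or more in CVT pools and 39.4 CPM or less in SPF pools. Mt2 in late granulocyte-like cells was 13.35 CPM or more in CVT pools and 11.8 CPM or less in SPF pools. Neither of those classes was tested for housing. The share of all genes tested whose pools were apart in this way was not measured, so the separation is only described. The log2 fold change was 0.27 (SE 0.067, adjusted p = 0.633 by edgeR), which did not pass. Of 9949 genes tested 0% passed by edgeR, where 353 higher and 243 lower genes had an unadjusted p under 0.05, and DESeq2 called 1. The adjusted p for Mt1 was 0.019 when every gene with a UMI entered the edgeR fit (15756 genes, 45 called), so the call changed with the filter, and it was 0.0831 with a block for the pool sets.

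Cluster 13, the GMP-like cluster with most Mt1, made up 33.7% ± 3.91 of GMP-like cells in CVT and 29.1% ± 2.05 in SPF pools (SD, n = 4; exact permutation test, two-sided, p = 0.0857, or 0.111 with the pool sets balanced). Mt1 within cluster 13 was 459.6 ± 42.8 CPM in CVT and 445.0 ± 19.6 CPM in SPF pools, which overlapped, and within cluster 10 it was 152.1 ± 24.3 and 111.2 ± 8.47 CPM. With the 3 GMP-like clusters weighted equally the log2 difference was 0.21, with no test since the pools were already apart in the class. Mt1 in LMPP-like cells was 26.2 ± 6.996 CPM in CVT and 13.8 ± 7.71 CPM in SPF pools, and its part in the GMP-like value was not tested.

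Mt2 in GMP-like cells was 9.23, 6.69, 4.29 and 4.16 CPM in SPF pools 1, 2, 7 and 8 and 14.1, 13.7, 5.89 and 6.06 CPM in CVT pools 3 to 6. The log2 fold change was 0.92 (SE 0.30, adjusted p = 0.729 by edgeR), at the low level described above. The summed level of Car1, Ermap and Rhd in the same cells was 67.4 ± 26.8 CPM in CVT and 41.5 ± 22.0 CPM in SPF pools, and Fam132a was 38.8 ± 3.84 and 34.5 ± 1.94 CPM (SD, n = 4). By pool, the sum was 97.94, 81.77, 43.91 and 45.89 CPM in CVT pools 3 to 6. In SPF pools 1, 2, 7 and 8 it was 33.44, 67.15, 15.88 and 49.68 CPM. For Mt2 as for this sum, CVT pools 3 and 4 were the highest and CVT pools 5 and 6 lay among the SPF pools. The part of free RNA in the Mt2 difference was not tested.

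In the 1394 LTHSC-like cells, with markers of long-term stem cells, Mt1 was 27.02, 40.4, 26.8 and 39.2 CPM in SPF pools 1, 2, 7 and 8 and 57.9, 39.7, 33.5 and 35.7 CPM in CVT pools 3 to 6. Only CVT pool 3 stood out, and the log2 fold change was 0.19 (SE 0.19, adjusted p = 0.99 by edgeR). Of 7740 genes 0.0129% passed, which is 1 gene, the chemokine gene Ccl5, named after its value was seen. Mt2 fell below the filter on low counts there and was not tested.

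**Figure D5:**
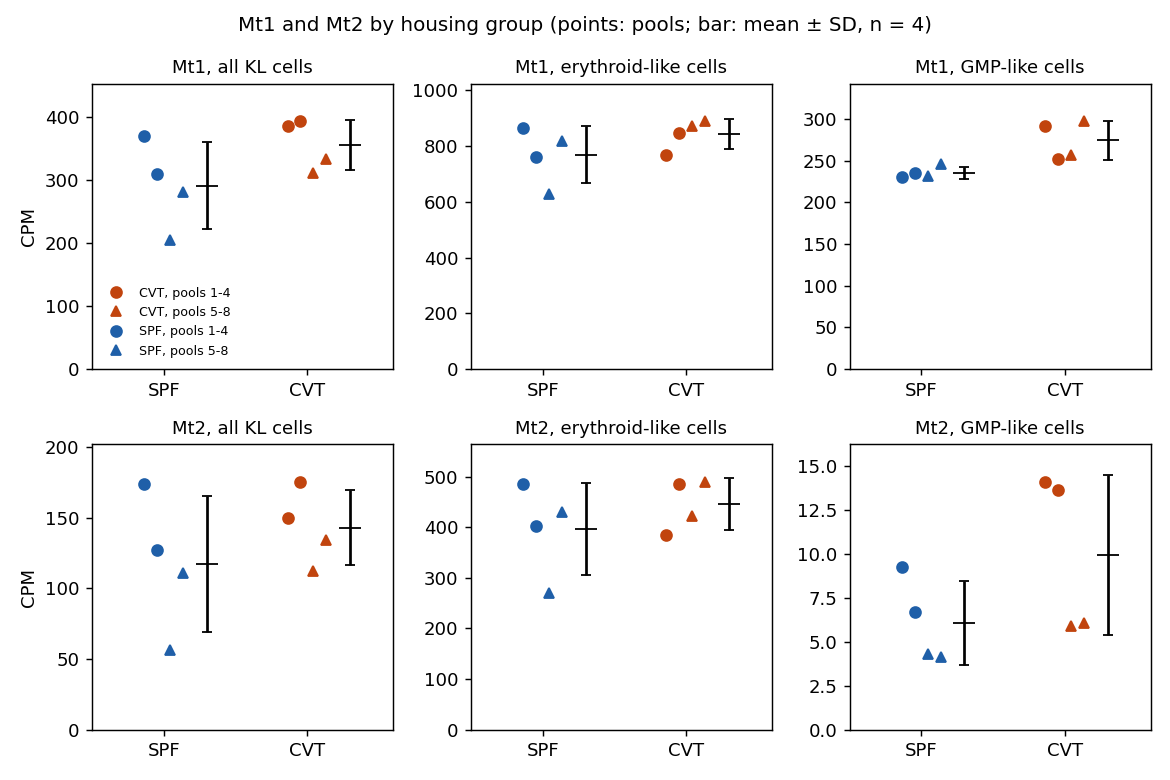
Mt1 (upper row) and Mt2 (lower row) in CPM for SPF and CVT pools in all KL, erythroid-like and GMP-like cells, with 1 point per pool and a bar for the mean ± SD of 4 pools. The groups overlap except for Mt1 in GMP-like cells, where CVT pools lie at 252.4 CPM or more and SPF pools at 245.9 CPM or less. Mt1 did not pass the edgeR test there.

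No gene of the metal, glucocorticoid, oxidative, handling stress or neighbour lists passed the test in any of the 4 populations. In erythroid-like cells 12 of 16 zinc genes tested and 9 of 11 copper genes were higher in CVT, with medians of 0.05 and 0.05 on the log2 scale against 0.00 for all genes. Mtf1 was 23.7 ± 1.26 CPM in CVT and 19.8 ± 3.03 CPM in SPF pools after TMM scaling (log2 fold change 0.23, SE 0.11, adjusted p = 0.89 by edgeR). Of 11 glucocorticoid-responsive genes, 8 were lower in CVT, with a median of -0.14. Tsc22d3 had a log2 fold change of -0.40 (SE 0.13) and Zbtb16, another target of the glucocorticoid receptor, of -0.78 (SE 0.20), each with an adjusted p = 0.89 by edgeR. These genes and Hspa1a below were named after their values had been seen.

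Genes of handling stress, which also respond to cell isolation, were mostly higher in CVT pools beside Mt1. In GMP-like cells all 13 tested were higher in CVT, with a median log2 fold change of 0.66 against 0.00 for all genes. Of these, 8 had an unadjusted p under 0.05 by edgeR, but none passed. The counts of such genes among all 9949 tested in GMP-like cells are given above. Of 14 in KL cells 13 were higher (median 0.27), and of 13 in erythroid-like cells 10 were higher (median 0.10). All 11 tested in LTHSC-like cells were higher (median 0.47). Hspa1a, a heat-shock chaperone, was 43.3 ± 38.2 CPM in CVT and 12.04 ± 6.07 CPM in SPF erythroid-like cells after TMM scaling (log2 fold change 1.79, SE 0.60, adjusted p = 0.89 by edgeR). Without CVT pool 4 the Hspa1a value was 1.09 (1.09 to 2.14 over the pools left out in turn). The part of cell handling in the metallothionein values was not tested.

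In all KL cells the most abundant members of each list had the TMM-scaled levels that follow. Gpx1 was 1038.0 ± 60.5 CPM in CVT and 954.6 ± 53.6 CPM in SPF pools, and Txn1 815.0 ± 24.5 and 750.5 ± 53.5 CPM. The copper chaperones Atox1 and Cox17 were 297.3 ± 8.77 and 174.6 ± 20.9 CPM in CVT and 272.8 ± 7.51 and 172.1 ± 11.3 CPM in SPF pools. The zinc carriers Slc39a7 and Slc30a5 were 40.0 ± 6.50 and 28.0 ± 1.32 CPM in CVT and 38.2 ± 3.12 and 27.5 ± 1.20 CPM in SPF pools. Nr3c1 and Tsc22d3 were 43.9 ± 1.56 and 37.7 ± 4.90 CPM in CVT and 46.0 ± 3.81 and 46.2 ± 1.01 CPM in SPF pools. Jun and Ier2 were 233.5 ± 119.6 and 127.4 ± 26.4 CPM in CVT and 193.7 ± 37.3 and 122.0 ± 12.03 CPM in SPF pools. The neighbours Nudt21 and Herpud1 were 212.8 ± 12.04 and 47.1 ± 3.99 CPM in CVT and 193.8 ± 8.63 and 48.7 ± 1.75 CPM in SPF pools.

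The genes most like the summed Mt1 and Mt2 level were found by Pearson's r of log2(CPM + 1) among 6704 genes. Over the 33 clusters they were Rpia (r = 0.83), an enzyme of the pentose phosphate pathway, Htra2 (0.81), a mitochondrial protease, Asb17 (0.80), Ephx2 (0.79), an epoxide hydrolase, and Pxmp2 (0.79), a peroxisomal membrane channel. Mt1 and Mt2 had r = 0.82 with each other over the clusters. Over the 8 pools of erythroid-like cells they were Srsf9 (0.98), a splicing factor, mt-Nd2 (0.98), of mitochondrial complex I, Asb17 (0.97), Rrn3 (0.96), an initiation factor of RNA polymerase I, and Sars2 (0.96), the mitochondrial seryl-tRNA synthetase. Clusters and pools share libraries and depth, and the pool values share the late-stage share described above.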

How the data were processed

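The deposited file held the authors' UMI counts per gene and cell from Cell Ranger (build mm9 in the submitters' processing notes, version not given in the sources used here), with no normalization, from 10x 3' libraries. Mt1, Mt2 and the lists were chosen with earlier results of these data known.

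All 29891 cells were kept. Counts were scaled to 10000 per cell and logged, and 1000 variable genes without Mt1 to Mt4 gave 30 principal components (scikit-learn 1.9.0), a graph of 30 neighbours and Leiden clusters (leidenalg 0.10.2, resolution 2, seed 1). Clusters were named from written markers. A name needed at least 3 markers found, and no other type with more markers among the leading genes. Clusters that did not meet this stayed unnamed. Scrublet (scanpy 1.11.5) called only 92 cells (0.308%), so it was taken not to have worked, and removal of the top 5% of scores per pool was an added alternative. Sums of UMIs in each pool went into edgeR 4.0.16 (TMM, filterByExpr, glmQLFit and glmQLFTest) in R 4.3.3, with DESeq2 1.42.0 as an alternative. In simulated data with 200 genes changed 2-fold, edgeR recovered 82% of them in KL, 88.5% in erythroid-like, 78.5% in LTHSC-like and 88% in GMP-like cells. Genes called that had been changed were 164 of 179, 177 of 186, 157 of 165 and 176 of 187 in the same order. No smaller change was simulated, and the fold changes of Mt1 and Mt2 in the main fits were below 2-fold, so the recovery does not apply to them. The pool total sets the precision, and intervals given as SD or SE cover pools, which may differ technically. Pools were mapped by the number ending each cell's name, and cell counts alone do not fix that map.

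Genes named are Mt1 and Mt2, list members that passed (or the 2 most abundant in KL cells), and the 5 genes with the highest r over clusters and over pools. Others were named after their values were seen. Motif shares come from RefSeq GRCm38.p6 and gene positions from GENCODE M21 (GRCm38), a build other than the submitters'. Alternatives were RLE factors, no low-count filter, DESeq2, a pool set block, a cell filter (1000 genes, 10% mitochondrial), doublets removed, thinning, resolution 1, 2000 variable genes, each pool left out and no interferon-led clusters. The equal-weight levels were added after the data were seen.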

Additional observations from a re-analysis of the deposited data

Results flagged for a closer look

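Each group of 4 pools was examined for a pool far from the rest, for Mt1 and Mt2 in the tested populations and the erythroid-like clusters. Of 42 groups 1 had such a pool, and chance gives about 1 in 20. Mt2 in erythroid-like cluster 11 was 785.3 CPM in SPF pool 1, from 64 cells, while the other SPF pools lay between 643.1 and 660.9 CPM (Dixon's ratio 0.875, above the 95% critical value). No difference in the housing effect between the pool sets passed the threshold for Mt1 or Mt2 (7 tests).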

How the results depend on the processing

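The fold changes of Mt1 and Mt2 in sums over a pool kept their direction under every alternative run. The equal-weight differences given above for erythroid-like cells did not keep theirs. With every gene that had a UMI, Mt1 (0.28) and Mt2 (0.93) in GMP-like cells passed (adjusted p = 0.019 and 0.00102 by edgeR), while over the other alternatives the adjusted p reached 1.0, and the cause was not tested. Leaving out 1 pool in turn, Mt1 ran from 0.22 to 0.48 in KL, 0.08 to 0.22 in erythroid-like, 0.05 to 0.28 in LTHSC-like and 0.23 to 0.31 in GMP-like cells, and Mt2 from 0.13 to 0.59, 0.06 to 0.29 and 0.71 to 1.09 in KL, erythroid-like and GMP-like cells.

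The count of genes called in KL cells was 15 by DESeq2 and 4 with the pool set block. In erythroid-like cells it was 1 without the filter and 1 by DESeq2. In LTHSC-like cells (1 gene) it was 32 without the filter, 4 with the block and 0 by DESeq2, thinned, at resolution 1, with 2000 variable genes and without interferon-led clusters. In GMP-like cells it was 45 without the filter, 1 by DESeq2, 6 with the block and 2 thinned. With 1 pool left out it ran from 0 to 2 in LTHSC-like and from 0 to 8 in GMP-like cells, and was 0 in KL and erythroid-like cells. Single pools decided these counts: the 8 in GMP-like cells came without CVT pool 6, 1 each without SPF pools 2 and 8 and CVT pool 5, and in LTHSC-like cells 2 came without SPF pool 1 or 2 and 0 without CVT pool 6.

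In erythroid-like, GMP-like, LTHSC-like, LMPP-like and megakaryocyte-like cells, levels moved by more than the SD over pools in 6 cases and by less in 58. Thinning, which weights cells equally, gave 612.4 CPM for Mt1 and 275.5 CPM for Mt2 in erythroid-like cells. Mt1 in GMP-like cells was 444.9 CPM at resolution 1 and 292.9 CPM with 2000 variable genes, and with 2000 variable genes Mt2 in LTHSC-like cells was 9.08 CPM and Mt1 in LMPP-like cells 33.4 CPM. No paired analysis was possible because no pool number occurs in more than 1 housing group. Mt2 in LTHSC-like cells was below the low-count filter, so there is no fold change with that filter to set beside the alternatives. Depth limits Mt2 outside erythroid-like cells, where a pool's level rests on few UMIs.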
